A study of Homo sapiens with 16 samples.

Results

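Chromosome 19 carries the densest collection of zinc finger genes in the human genome, and the regions of TOP2A cleavage in and around these genes are described here. The members are the 250 protein-coding genes of the RefSeq table (GRCh38.p14, the assembly behind hg38) that lie on chromosome 19 and have a symbol starting with ZNF, out of 20033 protein-coding genes in all. They were split by position into 37 genes of 19p12 (19 to 24.5 Mb), 95 genes of 19q13.4 (above 52 Mb) and 118 other genes. The rule uses position and name. A cleavage cluster region (CCR) was counted to a gene when its centre lay in the gene body or within 2 kb of either end, a stretch called the window.

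K562 is a human leukaemia cell line, derived from chronic myeloid leukaemia, with the BCR-ABL1 fusion. Cells were exposed to 25 µM etoposide for 1 h, 50 µM genistein for 1 h, 2 µM mitoxantrone for 1 h or 8 µM p-benzoquinone for 4 h, each with 0.05% DMSO, or to 0.05% DMSO as the vehicle. The protocol gives the vehicle exposure as 1 or 4 h and does not tie a time to a library. TOP2A was captured with an antibody from lysates after sonication, and the DNA set free from it was sequenced, so that a CCR marks DNA recovered with the enzyme. The labels name 16 libraries, of which 14 are TOP2A-bound DNA and 2 are input. The region lists hold no expression values, so the cell type could not be checked against markers.

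Zinc finger proteins of the ZNF kind bind DNA through tandem fingers, and many on chromosome 19 also carry a KRAB domain. The KRAB domain recruits TRIM28, which brings in SETDB1 and heterochromatin proteins and thereby silences transposable elements. The genes arose by repeated local duplication, so neighbours resemble each other in sequence, and the 19p12 cluster expanded in primates. TOP2A cuts both strands of one DNA duplex to pass another through, and a TOP2 poison raises the number of enzyme molecules held on cut DNA. Etoposide and mitoxantrone are leukaemia drugs, genistein is an isoflavone of soy, and p-benzoquinone is a metabolite of benzene that modifies the enzyme covalently.

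The authors deposited 1 pooled list of CCRs per treatment, with 182582 CCRs for etoposide, 415215 for genistein, 202865 for mitoxantrone, 359249 for p-benzoquinone and 310038 for DMSO on the main chromosomes. There is therefore no replicate value and no test between treatments. The intervals given are exact 95% counting intervals (Poisson for a density, conditional binomial for a ratio, Clopper-Pearson for a share). They are not adjusted for their number. They cover counting error only and no spread between libraries, because each treatment has 1 pooled list. Reads copied by PCR and not tagged per molecule are not independent, so the counting error itself may be larger than the intervals show. Etoposide and p-benzoquinone regions went down to a deposited value of 1.82, genistein regions to 3.72, mitoxantrone regions to 3.87 and DMSO regions to 1.84, so the lists also differ in how weak a region they kept. Numbers were scaled to list size and set over the callable genome of 2763 Mb, made of 100 kb stretches with a CCR in any list. A density of 1 is the genome mean of that list.

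Of the 250 members 246 were measured, meaning that at least 50% of the window was callable. The 4 others, ZNF66, ZNF85, ZNF100 and ZNF676, are all in 19p12 and lie wholly or mostly in stretches with no CCR in any list. Their cleavage was not measured here, and no density is given for them as single genes. How reads that align to several places were handled is not given in the sources used here, which bears on genes with close copies. Windows of 80 members overlap the window of another member, so the 250 genes make 203 separate windows with 7.771 Mb callable. Density and ratios over groups count each base once.

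To show where cleavage touched the start of a ZNF gene, the 250 bases before the start are printed for 4 genes. The start is that of the transcript in the RefSeq promoter table. For 182 of the 219 members in that table it is the outer end of the gene, and for 37 it lies inside the gene body, 511 bases in for ZNF793 and 1532 bases in for ZNF550. ZNF793 and ZNF550 are shown because they are the members whose promoter window was touched by CCRs of 2 lists, ZNF585B because a p-benzoquinone CCR spanned all 250 bases, and ZNF790 because a DMSO CCR covered 183 of them. Sequences are from RefSeq (GRCh38.p14), run 5′ to 3′ towards that start, and capitals mark bases inside a CCR of any list.
ZNF793, plus strand, chr19:37506689-37506938
ZNF793: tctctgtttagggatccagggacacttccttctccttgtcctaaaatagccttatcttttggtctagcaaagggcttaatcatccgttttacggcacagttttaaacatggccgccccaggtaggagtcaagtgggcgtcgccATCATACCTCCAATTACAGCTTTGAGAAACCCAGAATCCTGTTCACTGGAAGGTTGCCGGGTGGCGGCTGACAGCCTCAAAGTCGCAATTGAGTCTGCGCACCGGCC
ZNF550, minus strand, chr19:57559864-57560113
ZNF550: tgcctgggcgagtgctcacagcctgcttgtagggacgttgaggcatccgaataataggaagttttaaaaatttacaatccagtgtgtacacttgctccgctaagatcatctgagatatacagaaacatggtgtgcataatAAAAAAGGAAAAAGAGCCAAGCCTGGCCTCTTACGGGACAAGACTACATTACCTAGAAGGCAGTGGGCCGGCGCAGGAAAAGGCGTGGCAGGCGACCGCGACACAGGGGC
ZNF585B, minus strand, chr19:37210537-37210786
ZNF585B: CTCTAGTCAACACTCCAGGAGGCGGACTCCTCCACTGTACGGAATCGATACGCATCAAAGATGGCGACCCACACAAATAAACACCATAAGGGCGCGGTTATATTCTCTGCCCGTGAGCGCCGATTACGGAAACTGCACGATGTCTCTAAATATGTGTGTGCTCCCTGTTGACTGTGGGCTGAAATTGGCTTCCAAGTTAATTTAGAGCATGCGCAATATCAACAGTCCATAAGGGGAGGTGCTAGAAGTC
ZNF790, minus strand, chr19:36850793-36851042
ZNF790: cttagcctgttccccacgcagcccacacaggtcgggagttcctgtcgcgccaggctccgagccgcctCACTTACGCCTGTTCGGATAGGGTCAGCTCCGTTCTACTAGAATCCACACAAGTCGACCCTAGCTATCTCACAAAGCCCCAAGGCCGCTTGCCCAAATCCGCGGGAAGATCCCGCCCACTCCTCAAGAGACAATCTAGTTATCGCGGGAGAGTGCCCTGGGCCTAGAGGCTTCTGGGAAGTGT

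At ZNF793 an etoposide CCR (37506832 to 37507011, deposited value 11.2) and a p-benzoquinone CCR (37506900 to 37507017, value 2.65) covered 107 and 39 of the bases next to the start. At ZNF550 a genistein CCR (57559814 to 57559973, value 7.88) and a p-benzoquinone CCR (57559440 to 57559886, value 4.33) covered 110 and 23 of the bases next to the start. The p-benzoquinone CCR at ZNF585B ran from 37210214 to 37210824 with a value of 32.11. Outside the printed bases it also overlapped an etoposide CCR (value 14.93) and a genistein CCR (value 7.88), with 76 bases common to the 3 lists. The DMSO CCR at ZNF790 ran from 36850787 to 36850975 with a value of 4.72. Of the 250 bases 51.2% were G or C in ZNF793, with 10 CpG, 50% and 11 in ZNF550, 49.2% and 13 in ZNF585B, and 59.6% and 16 in ZNF790.

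Such contacts with a gene start were few. Of 250 members 219 had a promoter sequence, from 250 bases before to 50 after the start. A CCR touched 3 of the 219 in etoposide, 5 in genistein, 4 in mitoxantrone, 10 in p-benzoquinone and 8 in DMSO. That is 1.37%, 2.28%, 1.83%, 4.57% and 3.65%, against 2.26%, 4.26%, 2.04%, 6.85% and 4.29% over 15841 promoters of all protein-coding genes. In any list 28 member promoters were touched, 12.8%, beside 17.0% of all promoters. In each list the interval of the member share held the share of all promoters. By group the number touched in any list was 1 of 29 in 19p12, 7 of 84 in 19q13.4 and 20 of 106 among the other members. The 29 and the 219 include ZNF66, ZNF85 and ZNF100, which were not measured and count here as untouched.

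Across all members CCRs were sparser than the genome mean in each whole list, by much the same amount with poison and with vehicle. The windows held 402 CCRs with etoposide, 912 with genistein, 455 with mitoxantrone, 817 with p-benzoquinone and 669 with DMSO. With etoposide the density was 0.783 (0.708 to 0.863), with genistein 0.781 (0.731 to 0.833), with mitoxantrone 0.797 (0.725 to 0.874), with p-benzoquinone 0.809 (0.754 to 0.866) and with DMSO 0.767 (0.710 to 0.828). All protein-coding genes together lay just above the mean in each list. The low density depends on the scaling and on the library: scaled to the CCRs of chromosome 19 instead of the genome, the members had 1.08 with genistein and 1.08 with mitoxantrone, and 1 part of the etoposide list, described further on, had 1.15 (0.902 to 1.44) on the genome scale.

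**Figure D1:**
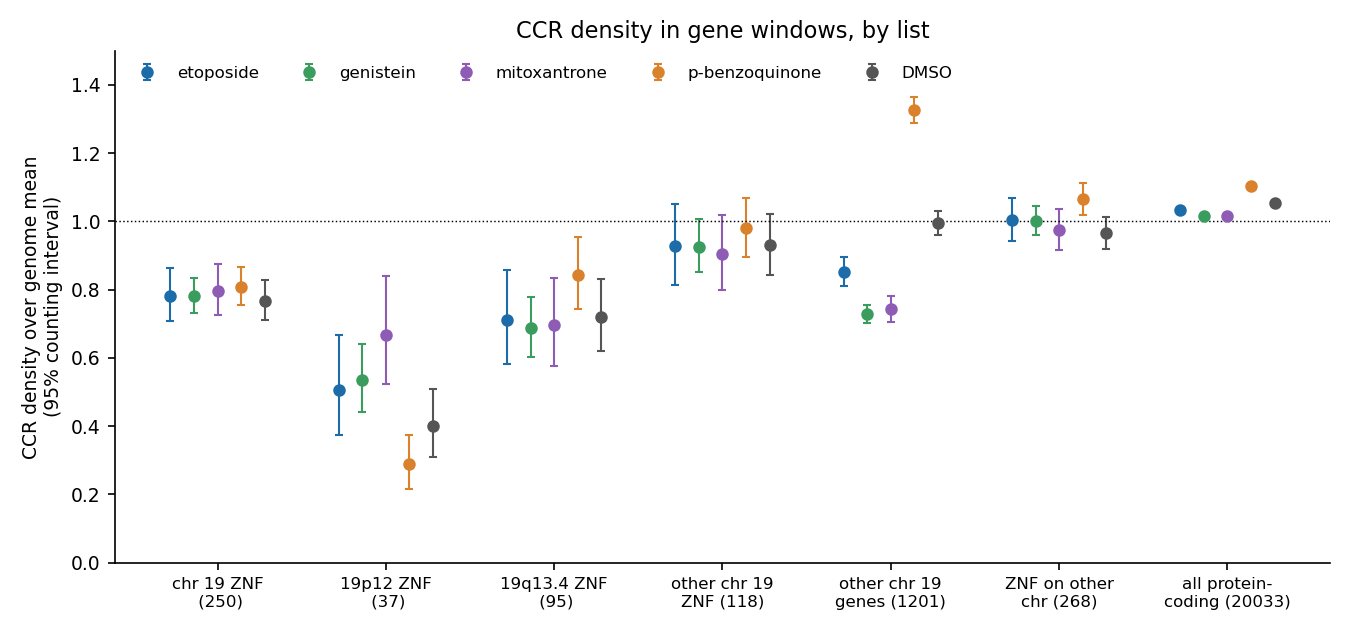
CCR density over the genome mean (vertical axis, no unit) in the joined windows of each gene set, by list, with 95% counting intervals. The 19p12 ZNF genes are lowest in each list, at 0.505 for etoposide, 0.535 for genistein, 0.668 for mitoxantrone, 0.288 for p-benzoquinone and 0.40 for DMSO, and the other chromosome 19 genes spread from 0.728 for genistein to 1.33 for p-benzoquinone.

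The 3 groups of members were not alike. In 19p12 the 5 lists held 49, 118, 72, 55 and 66 CCRs for etoposide, genistein, mitoxantrone, p-benzoquinone and DMSO. The 19p12 densities were 0.505 (0.374 to 0.668), 0.535 (0.443 to 0.640), 0.668 (0.522 to 0.841), 0.288 (0.217 to 0.375) and 0.40 (0.310 to 0.510) in that order, all below the mean with their whole interval. In 19q13.4 they were 0.710, 0.687, 0.698, 0.844 and 0.721, and among the other members 0.928, 0.927, 0.904, 0.980 and 0.929. The difference between 19p12 and the other members was largest with p-benzoquinone, a density ratio of 0.294 (0.218 to 0.389), and smallest with mitoxantrone, 0.739 (0.561 to 0.962). With DMSO that ratio was 0.431 (0.327 to 0.560). Within the members 19p12 against 19q13.4 gave a ratio of 0.341 (0.25 to 0.458) with p-benzoquinone, 0.957 (0.704 to 1.29) with mitoxantrone and 0.555 (0.413 to 0.739) with DMSO.

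The 19p12 windows are also where callable sequence is short, 1.469 Mb of 1.664 Mb. Counting the empty stretches as callable, a choice made after seeing the data, gave 19p12 densities of 0.446 with etoposide, 0.472 with genistein, 0.589 with mitoxantrone, 0.254 with p-benzoquinone and 0.353 with DMSO.

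ZNF genes elsewhere in the genome did not share the low density. The 268 ZNF genes on other chromosomes had 1.00, 1.00, 0.975, 1.07 and 0.966 times the mean for etoposide, genistein, mitoxantrone, p-benzoquinone and DMSO. Members over these genes gave a density ratio of 0.780 (0.693 to 0.877) with etoposide, 0.780 (0.721 to 0.843) with genistein and 0.818 (0.731 to 0.913) with mitoxantrone. The other 1201 protein-coding genes of chromosome 19 had 0.853, 0.728, 0.743, 1.33 and 0.994 times the mean. Members were therefore below these neighbours with p-benzoquinone, at a ratio of 0.610 (0.566 to 0.657), and with DMSO, at 0.772 (0.709 to 0.840). The DMSO value was not the same in both library parts of that list (described further on), with 0.611 (0.535 to 0.695) in the fine part and 0.981 (0.865 to 1.11) in the coarse part. With etoposide (0.918, 0.820 to 1.03), genistein (1.07, 0.995 to 1.16) and mitoxantrone (1.07, 0.964 to 1.19) the interval of the ratio held 1. The etoposide parts were not alike. Fine part 2, with 23 member CCRs, gave 0.5855 (0.359 to 0.916), fine part 1 gave 1.02 (0.777 to 1.33) and the coarse part 0.968 (0.826 to 1.13). The genistein parts gave 1.09 (0.968 to 1.23) and 1.125 (1.002 to 1.26).

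A direct comparison of each poison with DMSO asks whether a poison moved cleavage into or out of these genes. Over all members the log2 ratio was 0.03 (-0.15 to 0.21) with etoposide, 0.03 (-0.12 to 0.17) with genistein, 0.06 (-0.12 to 0.23) with mitoxantrone and 0.08 (-0.07 to 0.23) with p-benzoquinone. The other chromosome 19 genes gave -0.22, -0.45, -0.42 and 0.42 for the same poisons. Members minus these genes differed by 0.25 (0.05 to 0.45), 0.48 (0.31 to 0.64), 0.48 (0.28 to 0.67) and -0.34 (-0.50 to -0.18). In 19p12 the ratio was 0.33 (-0.23 to 0.89) with etoposide, 0.42 (-0.03 to 0.87) with genistein, 0.74 (0.24 to 1.24) with mitoxantrone and -0.48 (-1.02 to 0.06) with p-benzoquinone. The 4 ratios share the DMSO list. Of 16 ratios over all members and the 3 groups, 1 interval, that of mitoxantrone in 19p12, did not hold 0. Mitoxantrone has 1 library, and this interval, like the others, covers no spread between libraries.

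**Figure D2:**
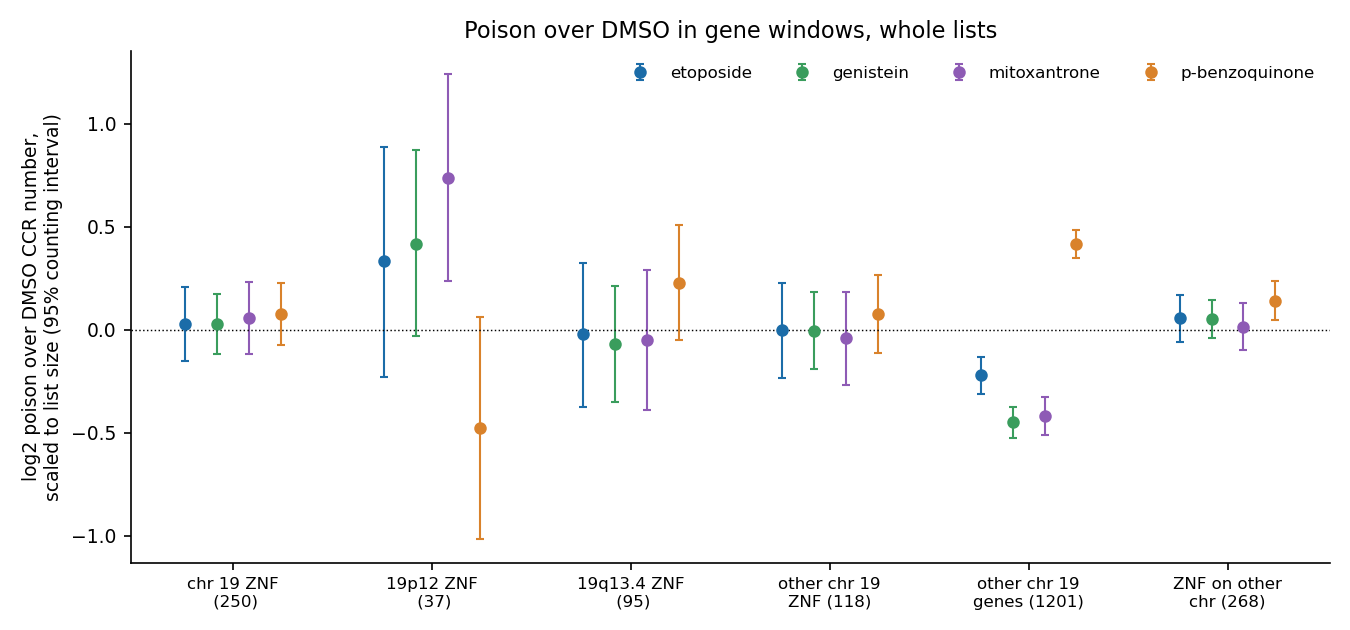
Log2 ratio of poison over DMSO CCR number, scaled to list size, in each gene set with 95% counting intervals. All members lie between 0.03 and 0.08, 19p12 spreads from -0.48 with p-benzoquinone to 0.74 with mitoxantrone, and the other chromosome 19 genes lie at -0.45 with genistein and 0.42 with p-benzoquinone.

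The lists also differ in the step of their low values. Low deposited values fall on multiples of a step, read as the value of 1 read. Each list was assigned to parts with a coarse step (0.324 to 0.359) or a fine step (0.228 to 0.247). The number of parts per list was set by hand, and the parts were found after seeing the data. Genistein had 2 coarse parts, mitoxantrone 1 coarse, p-benzoquinone 2 fine, etoposide 1 coarse and 2 fine, and DMSO 1 coarse and 1 fine. The titles of the pre-amplified libraries come in a pair of numbering styles, one starting with 4 and one naming K562. The number of coarse parts equals the number of titles starting with 4 in each list, and the number of fine parts equals the number naming K562 except in DMSO, where 2 titles stand beside 1 part. Because the total per list was set by hand, only the division into coarse and fine was read from the values. The match of the totals is therefore no support for tying parts to libraries. The labels do not say what the styles mean.

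Genistein and mitoxantrone have coarse parts only, p-benzoquinone fine parts only and DMSO both, so treatment and step cannot be told apart in the whole lists. The 2 DMSO parts differed from each other in the same gene sets as the poisons. The fine DMSO part over the coarse DMSO part gave a log2 ratio of -0.94 (-1.84 to -0.11) in 19p12, with densities of 0.269 (fine) and 0.518 (coarse). It gave 0.61 (0.50 to 0.72) in the other chromosome 19 genes, with 1.26 (fine) and 0.824 (coarse), and -0.08 (-0.31 to 0.16) over all members. The fine parts of p-benzoquinone had 0.188 and 0.353 in 19p12, and the coarse part of mitoxantrone had 0.705.

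**Figure D3:**
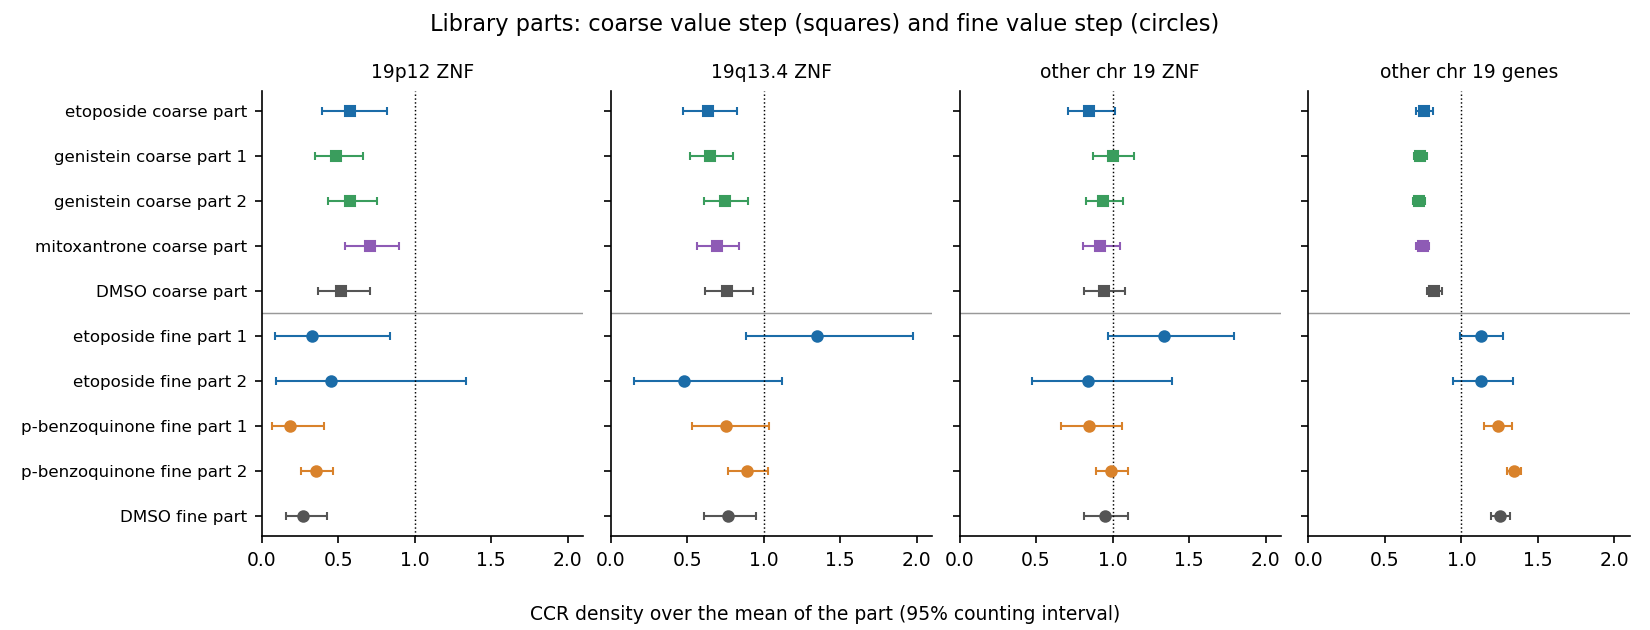
CCR density over the mean of each library part in 4 gene sets, with 95% counting intervals, for coarse parts (squares, upper rows) and fine parts (circles, lower rows). The other chromosome 19 genes lie between 0.723 and 0.824 in the coarse parts and between 1.13 and 1.35 in the fine parts, DMSO included.

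Each poison part was also set against the DMSO part of the same step. In 19p12 mitoxantrone gave 0.44 (-0.15 to 1.05), the 2 genistein parts -0.09 (-0.75 to 0.58) and 0.15 (-0.47 to 0.78), and the coarse etoposide part 0.15 (-0.57 to 0.86). The fine etoposide parts gave 0.29 (-1.74 to 1.89) and 0.76 (-1.65 to 2.54) there, on 4 and 3 CCRs. The 2 p-benzoquinone parts gave -0.52 (-2.14 to 0.88) and 0.39 (-0.42 to 1.26), so their signs differ. Members minus the other chromosome 19 genes came to 0.15 (-0.10 to 0.39) with mitoxantrone, 0.16 (-0.09 to 0.41) and 0.20 (-0.05 to 0.44) with genistein, and -0.12 (-0.47 to 0.22) and 0.03 (-0.19 to 0.27) with p-benzoquinone. With etoposide the coarse part gave -0.02 (-0.31 to 0.27) and fine part 2 gave -0.06 (-0.79 to 0.62). Fine part 1 of etoposide, with 74 member CCRs, stood apart at 0.74 (0.30 to 1.17). Of 32 ratios over all members and the 3 groups across the 8 poison parts, 2 intervals did not hold 0, both from this part, over all members (0.58, 0.19 to 0.96) and in 19q13.4 (0.82, 0.12 to 1.47). The low density of 19p12 was present in both DMSO parts. Its ratio to the other members was 0.284 (0.164 to 0.462) in the fine part and 0.550 (0.381 to 0.776) in the coarse part.

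Along the chromosome 236 members fall into 10 clusters, each with at least 5 members and gaps under 500 kb. The 19p12 genes, ZNF101 to ZNF254, form one of them and had the lowest density of the 10 with DMSO and p-benzoquinone. With etoposide, genistein and mitoxantrone another cluster was lowest. With genistein and mitoxantrone it was ZNF554 to ZNF77, at 0.263 (0.0716 to 0.673) and 0.269 (0.0326 to 0.972), on 4 and 2 CCRs. With etoposide it was the 25 genes from ZNF653 to ZNF791, all among the other members, at 0.495 beside 0.505 in 19p12. These 25 genes had 0.633 with genistein, above the 0.535 of 19p12, and 0.567 with mitoxantrone, below its 0.668. They had 0.766 with p-benzoquinone and 0.570 with DMSO, and in each list the whole interval was below 1. The cluster of 41 genes from ZNF175 to ZNF331, across the 52 Mb limit, was also low in each list, at 0.545, 0.670, 0.570, 0.621 and 0.596 for etoposide, genistein, mitoxantrone, p-benzoquinone and DMSO. The 26 genes from ZNF565 to ZNF573 were at 1.09, 1.05, 1.05, 0.733 and 0.833 in the same order. The log2 ratio over DMSO of that cluster was 0.39 (-0.05 to 0.82) with etoposide, 0.33 (-0.03 to 0.69) with genistein, 0.34 (-0.09 to 0.76) with mitoxantrone and -0.19 (-0.59 to 0.22) with p-benzoquinone, each interval holding 0. The 43 genes from ZNF264 to ZNF446 at the long-arm end had 125 CCRs with p-benzoquinone and 74 with DMSO, a log2 ratio of 0.54 (0.12 to 0.98), beside 0.42 in the other chromosome 19 genes. In 19q13.4, which holds that cluster, the p-benzoquinone parts against the fine DMSO part gave -0.02 (-0.62 to 0.55) and 0.22 (-0.16 to 0.61). Of 40 cluster ratios over DMSO 2 intervals did not hold 0, this one and that of mitoxantrone in the 19p12 cluster. The smallest cluster by window length, ZNF554 to ZNF77 near the short-arm end, had 4, 4, 2, 14 and 7 CCRs, too few to order the lists.

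**Figure D4:**
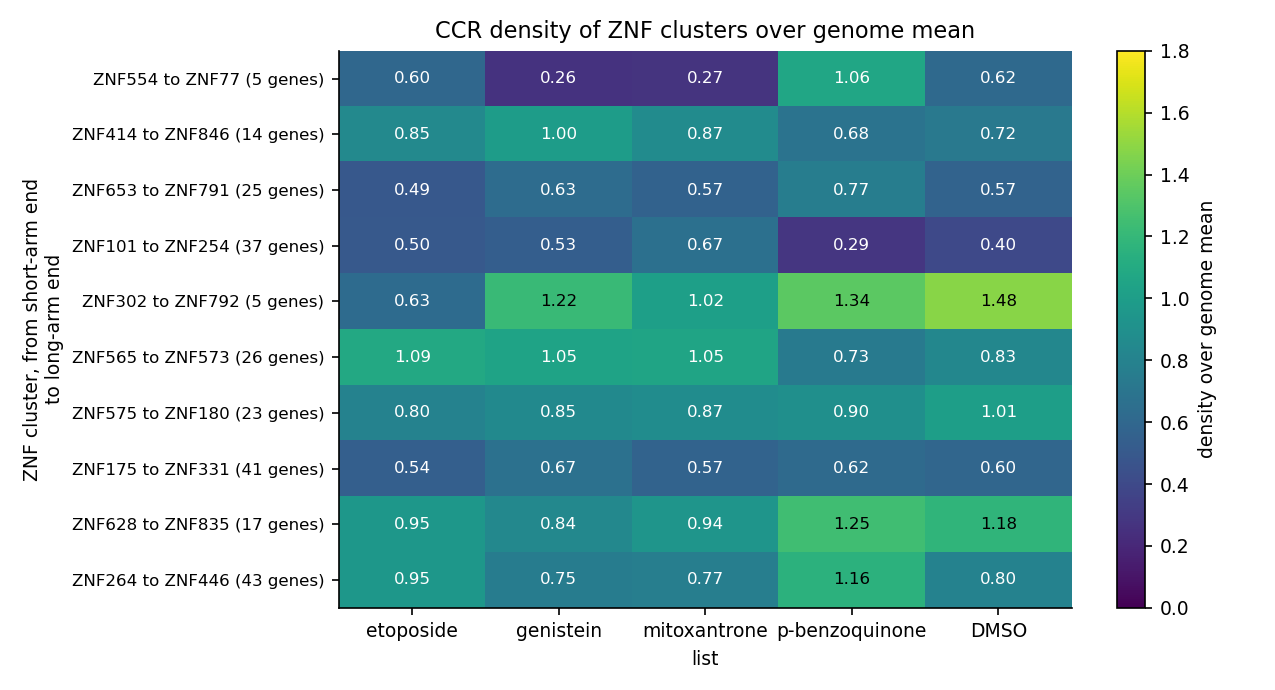
CCR density over the genome mean (colour and printed value) of the 10 ZNF clusters, listed from the short-arm end to the long-arm end, in the 4 poison lists and DMSO. The 19p12 cluster (ZNF101 to ZNF254) runs from 0.29 with p-benzoquinone to 0.67 with mitoxantrone, and the ZNF302 to ZNF792 cluster has the highest DMSO value, 1.48.

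Single genes spread widely within each group. The median member had 1 CCR with etoposide, 3 with genistein, 1 with mitoxantrone, 2 with p-benzoquinone and 2 with DMSO. Members with at least 2 times the mean numbered 16 of 246 with etoposide, where 10.2% of all measured protein-coding genes passed, and 7 with genistein (3.87% of all). They numbered 21 with mitoxantrone (8.37% of all), 17 with p-benzoquinone (15.4% of all) and 9 with DMSO (8.97% of all). As shares of the members these counts are 6.50%, 2.85%, 8.54%, 6.91% and 3.66%. With CCRs of a value of at least 4 alone, 19 members passed with DMSO, where 10.1% of all genes did. In 19p12 none of 33 measured genes passed in any list. Members with no CCR at all numbered 79 with etoposide (25% of all genes), 29 with genistein (13.3% of all), 65 with mitoxantrone (24.7% of all), 31 with p-benzoquinone (10.1% of all) and 37 with DMSO (14.3% of all). Across the lists 243 of 250 members had a CCR somewhere and 110 had one in all 5 lists. No share over all genes is set beside these counts, so they are not read as high or low. Of the 7 members without a CCR, 4 are the 19p12 genes that were not measured. The 3 measured genes with none were ZNF285, ZNF419 and ZNF552.

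**Figure D5:**
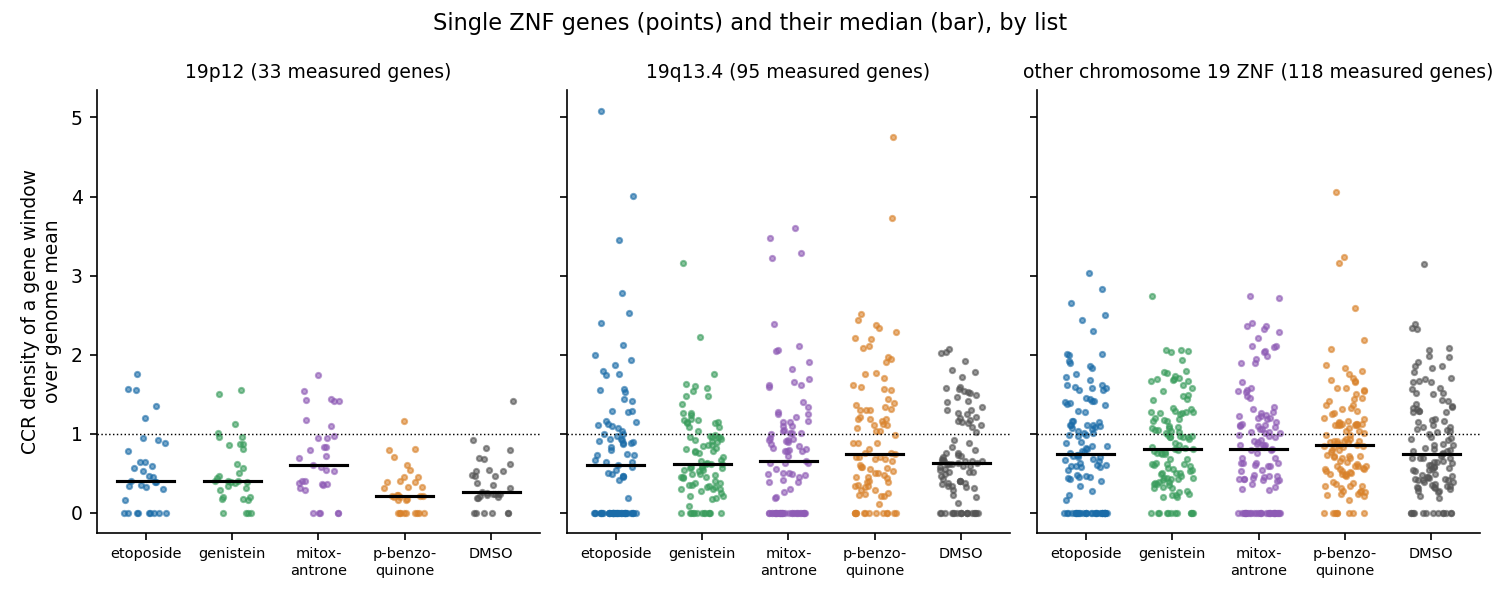
CCR density over the genome mean of each measured ZNF gene window (points) and the group median (bar), by list, for 19p12, 19q13.4 and the other members. The 19p12 medians are 0.406 for etoposide, 0.396 for genistein, 0.597 for mitoxantrone, 0.206 for p-benzoquinone and 0.259 for DMSO, and no 19p12 point reaches 2.

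The genes named next were picked by rule for their values and are a description. In 19p12 the highest mean densities among genes with at least 10 CCRs belonged to ZNF257, ZNF14, ZNF429 and ZNF682. ZNF257 (39.00 kb, 22052484 to 22091480) had 5 CCRs with etoposide, 10 with genistein, 3 with mitoxantrone, 1 with p-benzoquinone and 3 with DMSO. ZNF14 had 1, 6, 3 and 4 CCRs with the 4 poisons in that order and 0 with DMSO, so no ratio is given. ZNF429 had 4, 2, 5, 2 and 3 CCRs and ZNF682 had 3, 7, 5, 2 and 5 across the 5 lists. The longest member in this cluster with CCRs, ZNF254 (96.52 kb), had 3, 7, 7, 7 and 9, and ZNF730 had 6, 11, 2, 7 and 3. None of these was high in every list, and the order of the lists differs from gene to gene.

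In 19q13.4 ZNF211, ZNF549, ZNF304 and ZNF470-DT were highest by mean density. ZNF304, a KRAB protein described as a transcriptional silencer, had 2 CCRs with etoposide, 6 with genistein, 0 with mitoxantrone, 4 with p-benzoquinone and 2 with DMSO in 8.628 kb. ZNF211 had 5, 2, 1, 3 and 2 CCRs in the same order, so that its etoposide density of 5.09 rests on 5 regions. The most CCRs in this group belonged to ZNF331, a gene with imprinted transcripts, with 5, 14, 6, 8 and 6, and to ZNF667, with 4, 7, 4, 13 and 7.

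Among the other members ZNF473, ZNF574, ZNF230 and ZNF792 were highest by mean density. ZNF473, a zinc finger protein of the U7 complex that processes histone pre-mRNA, had 5 CCRs with etoposide, 5 with genistein, 3 with mitoxantrone, 11 with p-benzoquinone and 7 with DMSO in 22.77 kb. ZNF574 had 3, 1, 1, 9 and 4 CCRs, a density of 4.05 with p-benzoquinone and 2.09 with DMSO. ZNF536, a gene known for its expression in neurons, is by far the longest member at 488 kb (30225592 to 30713586). It held 42 CCRs with etoposide, 89 with genistein, 40 with mitoxantrone, 101 with p-benzoquinone and 91 with DMSO, 363 in all. Its density was 1.29, 1.20, 1.11, 1.58 and 1.65, above the mean in each list by point value, while the median member was below it. No counting interval is given for these values, so a density above the mean is not claimed for each list. Without ZNF536, a choice made after seeing the data, the other members had 0.828 with DMSO instead of 0.929, and all members 0.708 instead of 0.767.

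Among members with at least 10 CCRs in both lists together, 2 of 18 (11.1%) were at least 2-fold higher with etoposide and 1 (5.56%) at least 2-fold lower, where 5.38% and 10.1% of all such genes were. With genistein 6 of 45 (13.3%) were higher and 6 (13.3%) lower, beside 5.81% and 10.1% of all. With mitoxantrone 3 of 27 (11.1%) were higher and 4 (14.8%) lower, beside 5.92% and 9.98% of all. With p-benzoquinone 6 of 37 (16.2%) were higher and 3 (8.11%) lower, beside 9.75% and 5.52% of all. With values of at least 4 the lower count with genistein was 1 of 30 in place of 6 of 45, where 5.89% of all genes were lower. These shares rest on 1 to 6 genes each. The median log2 ratio of these members was -0.14, 0.16, 0.25 and 0.17, beside -0.04, -0.06, -0.05 and 0.08 over all genes.

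ZNF569 (37411157 to 37469265, 58.11 kb) was among the highest ratios of 3 poisons. It had 10 CCRs with etoposide, 18 with genistein, 7 with mitoxantrone, 9 with p-benzoquinone and 4 with DMSO. Its log2 ratio was 2.09 (0.29 to 4.21) with etoposide and 1.75 (0.15 to 3.77) with genistein, and 1.42 (-0.56 to 3.64) with mitoxantrone and 0.96 (-0.88 to 3.11) with p-benzoquinone, all set against the same 4 DMSO regions. ZNF420, whose product Apak is known to restrain p53, had 12, 13, 8, 9 and 5 CCRs, a log2 ratio of 2.03 (0.42 to 3.88) with etoposide and 1.29 (-0.50 to 3.25) with mitoxantrone. ZNF544 had 11 CCRs with p-benzoquinone against 2 with DMSO, at 2.25 (0.05 to 5.46). At the low end ZNF345 had 1 CCR with mitoxantrone against 10 with DMSO, at -2.71 (-8.15 to 0.10). ZNF723, in 19p12, had 1, 3, 2, 3 and 8 CCRs across the 5 lists. Its scaled ratio was below DMSO with each poison, and the interval held 0 for genistein, mitoxantrone and p-benzoquinone, where both lists together reach 10 CCRs. The interval did not hold 0 for 2 of 18 members with etoposide, 2 of 45 with genistein, 1 of 27 with mitoxantrone and 1 of 37 with p-benzoquinone, and ZNF536 makes up 2 of these 6.

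Further genes from the rule gave the following counts. For etoposide ZNF567 had 2 against 8 with DMSO, ZNF599 had 3 against 10, ZNF793 had 5 against 5 and the read-through gene ZNF559-ZNF177 had 4 against 13. For genistein ZNF558 had 9 against 2, ZNF560 had 8 against 2 and ZNF45 had 3 against 7. For mitoxantrone ZNF507 had 8 against 6 and ZNF559-ZNF177 had 2 against 13. For p-benzoquinone ZNF606 had 9 against 2, ZNF490 had 11 against 3 and ZNF565 had 3 against 7. The CCRs of ZNF559-ZNF177 are shared with the genes it joins. The interval of each of these ratios held 0.

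The members were also divided from the outer start of the gene to its end. Over 216 members with a known strand, 5 equal stretches of the gene body had densities from 0.790 to 0.861 with etoposide, 0.742 to 0.819 with genistein, 0.732 to 0.923 with mitoxantrone, 0.731 to 0.863 with p-benzoquinone and 0.715 to 0.813 with DMSO. The 2 kb before the start had 0.806 (0.511 to 1.21), 0.693 (0.506 to 0.928), 0.694 (0.435 to 1.05), 0.997 (0.753 to 1.30) and 0.722 (0.503 to 1.00) in the same order. In each list this interval overlapped the range over the gene body. The 2 kb after the end had 0.561 (0.320 to 0.910), 0.801 (0.598 to 1.05), 1.14 (0.795 to 1.57), 0.926 (0.691 to 1.21) and 0.887 (0.642 to 1.20), and these intervals overlapped it too.

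Few places were shared between lists. Of poison CCRs in member windows 7.46% (5.09 to 10.5) overlapped a DMSO CCR with etoposide, 5.37% (4.00 to 7.04) with genistein, 7.03% (4.86 to 9.78) with mitoxantrone and 8.45% (6.63 to 10.6) with p-benzoquinone. The whole lists had 8.39%, 6.79%, 7.06% and 7.88%. In 19p12, 1 of 49 etoposide CCRs, 0 of 118 genistein CCRs, 3 of 72 mitoxantrone CCRs and 0 of 55 p-benzoquinone CCRs overlapped a DMSO CCR. With a count of 0 the Clopper-Pearson interval of the share still reached up to 3.08% for genistein and 6.49% for p-benzoquinone. The 19p12 windows also held few DMSO CCRs to overlap, 0.40 of the mean density.

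Joining all overlapping CCRs gave 2880 regions in member windows, of which 88.5% came from 1 list, 10.2% from 2 and 1.15% from 3, against 87.9%, 10.7% and 1.29% over the genome. No region joined CCRs of all 5 lists, where 0.0053% did over the genome. Another 4 regions, 0.139%, joined CCRs of 4 lists, close to the 0.118% over the genome. They lie in ZNF599 (34803114 to 34803705), ZNF549 (57534895 to 57535412), ZNF606 (57981624 to 57982447) and ZNF274 (58204941 to 58205213), each from etoposide, genistein, p-benzoquinone and DMSO and without mitoxantrone. At ZNF274 the 4 CCRs had 48 bases in common, with values of 3.69, 8.47, 2.73 and 3.71 for etoposide, genistein, p-benzoquinone and DMSO. The other 3 are chains whose CCRs share no base across all 4 lists. ZNF274 encodes a KRAB protein known to bind the last exons of other ZNF genes and to bring SETDB1 there. By number its window had 4, 3, 2, 5 and 8 CCRs across etoposide, genistein, mitoxantrone, p-benzoquinone and DMSO, with log2 ratios of -1.84 (-4.38 to 0.22) with genistein and -1.39 (-4.66 to 0.94) with mitoxantrone.

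The deposited value of a CCR, which has no stated unit and is compared here only within a list, was similar in members and in the whole list. The medians were 7.80 beside 7.79 with etoposide, 12.6 beside 12.9 with genistein, 12.6 beside 13.3 with mitoxantrone, 4.82 beside 4.83 with p-benzoquinone and 6.42 beside 6.24 with DMSO. The mitoxantrone list also carries an input signal. It was 0 for 26.2% (22.2 to 30.5) of member CCRs beside 22.5% of the whole list, and for 36.1% (25.1 to 48.3) of the 72 CCRs in 19p12.

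The silencing partners of the KRAB proteins were described with the same counts. Of 18 genes listed by role (TRIM28, SETDB1, heterochromatin proteins, the HUSH complex and others) 16 were measured, and ZFP57 and DAXX were not. Their median density was 0.825 with etoposide, 0.832 with genistein, 1.08 with mitoxantrone, 0.892 with p-benzoquinone and 1.06 with DMSO. At least 2 times the mean was reached by 0, 0, 1, 1 and 1 of 16, beside the shares of all genes given above. By mean density TRIM28, on chromosome 19 at 58544064 to 58550715, led with 0 CCRs with etoposide, 3 with genistein, 2 with mitoxantrone, 1 with p-benzoquinone and 3 with DMSO. MORC2, a partner of the HUSH complex, had 5, 10, 4, 8 and 7, and CHD3, a remodeller of the NuRD complex that TRIM28 binds, had 2, 2, 3, 11 and 4.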

How the data were processed

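TOP2A-bound DNA from K562 cells was sequenced in single-end mode. Per the submitters' processing notes, hg38, Bowtie2 2.1.0 and SAMtools 0.1.19 were used; for the region caller and for reads with several alignments, the step taken is not stated there. Each treatment has 1 pooled list in which the authors deposited a score per region, of no stated unit. In the mitoxantrone list they also deposited an input signal, and which input library it comes from is not stated. Depth per library is unknown. The mitoxantrone list appears in no sample description and was matched by treatment to its 1 library. The descriptions tie only pre-amplified libraries to lists.

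Overlapping genistein entries were joined (425777 entries gave 415215 CCRs). Only the autosomes, X and Y were used. Groups follow the rule in the report. The members and gene lists were chosen with earlier results of these data known. Named genes were taken by rule: per group the 4 highest mean densities (at least 10 CCRs in all) and the 2 with the most CCRs, per poison the 3 highest and 3 lowest log2 ratios (at least 10 CCRs in both lists), genes with a region in at least 4 lists, the 4 longest genes without a CCR, and the 3 corepressor genes of highest mean density. ZNF285, ZNF419 and ZNF552, the clusters and the printed ZNF585B and ZNF790 promoters were chosen after their values were seen. Library parts took the number of steps set by hand per list; 98.4% to 99.9% of low values fell on them, against 9.59% to 30.4% by chance, and 14.5% to 25.9% of values were left out. Alternatives were values of at least 4, gene bodies alone, any base in the window, covered bases, scaling to chromosome 19, each part alone, genistein entries as deposited and a 50% overlap. Finger numbers per protein were not analysed here. Promoters and strand came from RefSeq (GRCh38.p14), matched by symbol for 219 of 250 members. Counting, intervals and steps were tested on simulated data. The software was matplotlib 3.10.9, scipy 1.17.1, pandas 2.3.3, numpy 2.4.6 and Python 3.11.15.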

Additional observations from a re-analysis of the deposited data

How the results depend on the processing

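No paired analysis was possible because each treatment has 1 pooled list and the values carry no replicate number; leaving out a replicate was not possible for the same reason. Densities and log2 ratios counted by any base in the window, by covered bases or with genistein entries as deposited moved by less than the counting interval. Scaled to chromosome 19 instead of the genome, the all-member density turned above 1 for genistein (1.08) and mitoxantrone (1.08) and moved to 0.955 for etoposide, 0.743 for p-benzoquinone and 0.851 for DMSO. The same scaling gave 0.741 and 0.902 in 19p12 for genistein and mitoxantrone, 0.866, 0.952 and 0.942 in 19q13.4 for etoposide, genistein and mitoxantrone, and 1.13, 1.28, 1.22 and 1.03 in the other members for etoposide, genistein, mitoxantrone and DMSO. It moved the log2 ratios over DMSO of all members to 0.35, 0.34 and -0.20 for genistein, mitoxantrone and p-benzoquinone, that of 19q13.4 to 0.25 for genistein, and those of the other members to 0.32, 0.24 and -0.20 for genistein, mitoxantrone and p-benzoquinone.

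Fine part 1 of etoposide alone turned above 1 for all members (1.15) and for 19q13.4 (1.35), with 0.329 in 19p12 and 1.33 in the other members; fine part 2 gave 0.660 and 0.480 for all members and 19q13.4. Part 1 of p-benzoquinone gave 0.693, 0.188 and 0.845 for all members, 19p12 and the other members. The DMSO parts gave 0.269 (fine) and 0.518 (coarse) in 19p12. Against the DMSO part of the same step, the log2 ratios moved to 0.58, 0.82 and 0.49 for all members, 19q13.4 and the other members with etoposide fine part 1, and to -0.21 and -0.67 for all members and 19q13.4 with fine part 2. In 19p12 genistein part 1 gave -0.088 and p-benzoquinone part 2 gave 0.39, and p-benzoquinone part 1 gave -0.14 and -0.17 for all members and the other members. The cause was not tested.

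With values of at least 4, the DMSO members with at least 2 times the mean numbered 19 of 246 (10.1% of all genes). At that cutoff 2 of 8 members were past 2-fold lower with etoposide and 1 of 30 with genistein (9.05% and 5.89% of all genes). With mitoxantrone 2 of 15 and with p-benzoquinone 1 of 16 were lower (8.32% and 7.72% of all). Past 2-fold higher were 3 of 8, 6 of 30, 3 of 15 and 4 of 16 in that order. The shares of all genes were 6.91%, 9.07%, 6.16% and 14.7%. Gene bodies alone gave 2 and 1 members lower for etoposide and mitoxantrone. Neither the number tested nor a share over all genes is set beside these counts, so they are not read as high or low. Overlap with DMSO was 4.44% and 4.38% for etoposide and p-benzoquinone at values of at least 4. An overlap of at least 50% of the poison CCR gave 4.98%, 3.62%, 3.96% and 4.41% for etoposide, genistein, mitoxantrone and p-benzoquinone. Without ZNF536 the DMSO density was 0.708 for all members and 0.828 for the other members, where p-benzoquinone gave 0.896. The median member had 1 to 3 CCRs per list.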
